A study of Mus musculus with 16 samples.

Results

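The cyclins, cyclin-dependent kinases and kinase inhibitors that govern passage through G1 were followed in single light zone (LZ) germinal center (GC) B cells. They were chosen by name: the rows of the deposited matrix with the symbols *Ccnd2*, *Ccnd3*, *Ccne1*, *Ccne2*, *Cdk2*, *Cdk4*, *Cdk6*, *Cdkn1a*, *Cdkn1b* and *Cdkn2c*, 10 genes of 56691, each with 1 row. The matrix held 637 cells from the popliteal lymph nodes of 8 male host mice. Every host had been primed with ovalbumin, had received a mixture of B1-8hi BTKC481S and B1-8hi BTKWT B cells, and had been boosted with NP-ovalbumin in the footpads. B1-8hi B cells carry a rearranged heavy chain gene that binds the hapten NP. BTK is a kinase that relays the B cell receptor signal, and the C481S change keeps the inhibitor acalabrutinib from binding it. Acalabrutinib was given by mouth in repeated doses to 5 hosts, named A7, A8, A10, A11 and A12 (381 cells), and vehicle to 3 hosts, V5, V7 and V9 (256 cells). The labels divide each host into a BTKC481S and a BTKWT sample, 16 in all, but the cell names carry the host and not the genotype, so each host was treated as 1 replicate with both genotypes together, and the effect of the genotype was not analysed here. The age of the hosts is not given in the labels. The hosts came from independent experiments, and which host belonged to which experiment is not given, so no fit holds the experiment. The p-values between treatments measure the spread between these mice. Those between classes of cells from the same hosts measure the spread of the class difference over these mice.

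D-type cyclins, here *Ccnd2* and *Ccnd3*, bind CDK4 and CDK6 and begin the phosphorylation of the retinoblastoma protein in G1. That phosphorylation releases E2F transcription factors, whose targets include the E-type cyclins *Ccne1* and *Ccne2*, the partners of CDK2 at the start of S phase. *Cdkn2c* encodes an INK4 inhibitor, which binds CDK4 and CDK6, and *Cdkn1a* and *Cdkn1b* encode CIP/KIP inhibitors, which bind cyclin-CDK complexes. In GCs, MYC is induced in a minority of LZ B cells during selection, and cyclin D3 is known for its part in the cell cycles of dark zone (DZ) B cells.

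Upstream sequences are shown for the 3 kinase genes, the only genes with a match to the motifs given below among the 8 whose promoters were at hand. RefSeq promoters (assembly GRCm38.p6) were at hand for 8 of the 10 genes, in 11 entries, with none for *Ccnd2* and *Ccne2*. The 250 bases before the start site were searched on both strands for the E2F motifs TTTGGCGC, TTTCCCGC, TTTCGCGC and GGCGGGAA and for the E box CACGTG, a sequence that MYC-MAX dimers are known to bind. GGCGGGAA shares 7 letters with the reverse complement of TTTCCCGC, so 1 stretch can match both. Any E2F motif was present in 2.92% of 32851 promoters and the E box in 6.02%. The sequences follow with the matches in capitals, 5′ to 3′ on the strand of the gene.
Cdk2, chr10:128705052-128705301, minus strand: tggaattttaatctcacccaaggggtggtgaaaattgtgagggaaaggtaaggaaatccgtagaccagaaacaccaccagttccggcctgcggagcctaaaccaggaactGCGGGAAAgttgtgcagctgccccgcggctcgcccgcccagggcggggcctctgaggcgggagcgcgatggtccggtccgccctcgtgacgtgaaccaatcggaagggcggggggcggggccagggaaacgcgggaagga
Cdk4, chr10:127063285-127063534, plus strand: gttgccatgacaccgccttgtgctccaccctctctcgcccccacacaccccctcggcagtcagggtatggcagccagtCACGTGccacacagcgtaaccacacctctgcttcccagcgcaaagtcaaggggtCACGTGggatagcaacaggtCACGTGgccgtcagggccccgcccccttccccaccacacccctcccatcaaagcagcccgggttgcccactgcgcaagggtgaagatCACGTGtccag
Cdk6, chr5:3343643-3343892, plus strand: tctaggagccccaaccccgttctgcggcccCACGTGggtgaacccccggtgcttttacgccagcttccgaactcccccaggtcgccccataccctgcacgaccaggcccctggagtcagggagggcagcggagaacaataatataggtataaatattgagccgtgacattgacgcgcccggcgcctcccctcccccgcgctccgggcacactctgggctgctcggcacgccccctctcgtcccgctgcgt
*Cdk2* held the motif TTTCCCGC, read on the opposite strand, from 140 to 133 bases before the start, a motif found in 0.895% of promoters. *Cdk4* held 4 E boxes, of which the nearest lay 11 to 6 bases before the start, and 7 promoters of all (0.0213%) held as many. *Cdk6* held 1 E box, 220 to 215 bases before the start. The entries of *Ccnd3*, *Ccne1*, *Cdkn1a*, *Cdkn1b* and *Cdkn2c* held none of these letters in this window. A match is a description of the sequence and not evidence of binding.

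Each host contributed 45 to 130 cells on 1 to 3 plates, and its summed counts ranged from 26778559 to 114987280. A cell held 132412 to 1825420 counts, with a median of 789357. B cell markers summed to between 3357 and 4872 CPM per host (CPM, a gene's counts divided by the total and scaled to 1000000) and GC markers to between 1796 and 2524 CPM, although the B cell gene *Ms4a1* had no count in any cell. Markers of the LZ (1811 to 2844 CPM) and of the DZ (1421 to 1848 CPM) were both present. T cell markers summed to at most 52.2 CPM and those of macrophages and monocytes to at most 36.3 CPM, with *Cd14* and *Itgam* at 0. Markers of stroma and endothelium summed to between 71.8 and 331 CPM, with 1 gene at 10 or more counts in 32.3% of cells. In single cells, 6.28% held a T cell marker and 12.9% a macrophage marker at 10 or more counts. Among cells with *Ccnd2* at 10 or more counts, 12.1% held a T cell marker (4 of 33) and 9.09% a macrophage marker. Long genes that belong to other tissues and are not expected in B cells (22 were listed) summed to between 401 and 1466 CPM per host, with a median of 1 to 21 counts where a gene was detected. At 10 or more counts they were found in a median of 15.9% of cells, so that a small share of cells is not by itself above stray reads. Relative to the rate of the long genes per kilobase of gene, *Ccnd2* stood 15.2 times higher in CPM, *Cdk6* 33.3 times, *Cdkn1b* 62.5 times, *Cdkn2c* 73.6 times and *Cdkn1a* 4.48 times. Low counts were therefore read with care, and shares of cells are given at 10 or more counts unless stated otherwise.

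*Ccnd3* was the D-type cyclin found in most cells, and *Ccnd2* was found in a small minority. Per host, *Ccnd3* reached 446 CPM at the lowest, 612 CPM at the median and 858 CPM at the highest, a mean of 652 ± 159 CPM (SD, n = 8 hosts). It had at least 1 count in 87.1% of cells and at least 10 counts in 81.8%. *Ccnd2* averaged 14.2 ± 11.5 CPM (SD, n = 8 hosts), with 0 counts in host A7, a median of 12.9 CPM and a highest value of 31.5 CPM in host V9. *Ccnd2* was detected in 6.28% of cells (exact 95% interval 4.52 to 8.45%), and in 5.18% at 10 or more counts. These intervals treat cells as independent draws and leave out the spread between hosts. The share of cells with a *Ccnd2* count ran from 0% in host A7 to 13.6% in host A12. The libraries carry no molecular identifiers. *Ccnd1*, the remaining D-type cyclin, had a count in 3 cells of 637. *Ccnd3* overlaps *Bysl* on the opposite strand, and *Ccnd2* overlaps the antisense gene *9330179D12Rik*. Whether the counting used strand is not given.

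*Cdk4*, *Cdk6* and *Cdk2* had at least 1 count in 62.3%, 56.5% and 51.3% of cells. *Cdk4* ranged over hosts from 207 to 326 CPM with a median of 282 CPM (mean 275 ± 41.5, SD, n = 8), *Cdk6* from 114 to 289 CPM with a median of 229.9 CPM (mean 218 ± 60.2), and *Cdk2* from 111 to 257 CPM with a median of 185 CPM (mean 182 ± 43.9). At 10 or more counts they were found in 57.6%, 48.5% and 40.7% of cells. The E-type cyclins were carried by fewer cells. *Ccne1* averaged 76.5 ± 33.3 CPM (SD, n = 8; 41.6 to 126 CPM) and was found in 19.6% of cells, and *Ccne2* averaged 39.7 ± 8.95 CPM (26.4 to 50.2 CPM) and was found in 19.2%. *Ccne2* overlaps *Ints8* on the opposite strand over 5622 bases of gene span, introns included. Reads of *Ccne2* and those of *Ints8* may therefore not be told apart.

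The inhibitors were low, like *Ccnd2*. *Cdkn2c* averaged 16.0 ± 10.2 CPM (SD, n = 8), from 0.261 CPM in host A7 to 28.7 CPM in host A8, and *Cdkn1b* 11 ± 5.74 CPM, from 2.56 CPM in host A8 to 21.8 CPM in host A11. They were found at 10 or more counts in 5.97% and 8.63% of cells. Of the 115 cells with a *Cdkn1b* count, 60 held fewer than 10, and the median was 8 counts, within the range of the long genes of other tissues. *Cdkn1a* averaged 1.502 ± 1.23 CPM. Of the 46 cells with a *Cdkn1a* count, 39 held fewer than 10, and the median was 1 count, in the range of the long genes of other tissues, so no statement on *Cdkn1a* expression in single cells is drawn. Of the other inhibitors of these families, *Cdkn2a* had a count in 6 cells, and *Cdkn1c* and *Cdkn2b* had 0 counts in 637 cells. The B cell gene *Ms4a1* also had 0 counts, so a 0 in this matrix is not read as absent expression. *Cdkn2d* was found at 10 or more counts in 23.3% of cells without and 17.5% of cells with a *Myc* count.

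**Figure D1:**
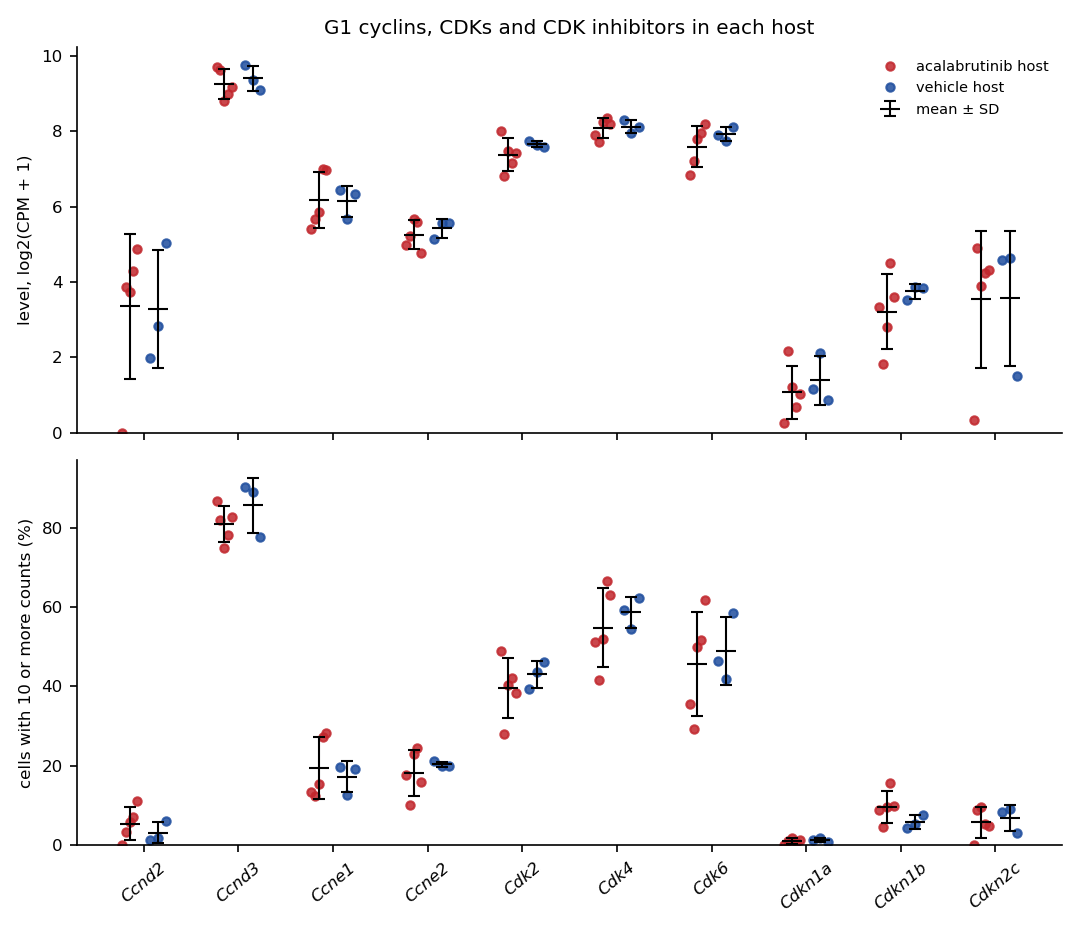
Level of each gene in each host as log2(CPM + 1) of the counts summed over a host's cells (top) and percent of its cells with at least 10 counts (bottom), with a point for each acalabrutinib (red) and vehicle (blue) host and the mean with SD of each arm. *Ccnd3* was highest in CPM in every host, and the acalabrutinib and vehicle hosts overlapped for all 10 genes.

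Levels of different genes were compared per kilobase of exons. On that scale *Cdk4* (84.6 CPM per kb) and *Ccnd3* (74.3 CPM per kb) led, and *Cdk4* was the higher in 5 of 8 hosts, so their order was not separated by the spread between hosts. *Ccnd3* exceeded *Cdk2* (29.3 CPM per kb) in 8 of 8 hosts, and *Cdk2* exceeded *Ccne1* (28.7 CPM per kb) in 5 of 8. *Ccne1* exceeded *Cdk6* (15.5 CPM per kb) in 8 of 8, and *Cdk6* exceeded *Ccne2* (11.4 CPM per kb) in 7 of 8. Below them came *Cdkn2c* (5.95), *Cdkn1b* (2.42), *Ccnd2* (1.51) and *Cdkn1a* (0.423 CPM per kb), with each neighbor higher in 5 to 7 of 8 hosts. Reads over introns were also counted, so the length of exons scales long genes imperfectly.

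None of the 10 genes passed the test between acalabrutinib and vehicle. In edgeR's quasi-likelihood test on counts summed per host, 0 of 18016 genes were called at an adjusted p under 0.05 (0% of genes tested), with 616 genes at an unadjusted p under 0.05, and DESeq2 called 105 genes (0.583%), none of them among the 10. *Ccnd3* was at 838, 793, 446, 506 and 572 CPM in hosts A7, A8, A10, A11 and A12, and at 858, 652 and 549 CPM in hosts V5, V7 and V9. Its log2 fold change was -0.14 ± 0.28 (SE, edgeR, adjusted p = 0.999988, 5 against 3 hosts). *Cdk4* was at 237, 207, 304, 326 and 290.0 CPM in the acalabrutinib hosts and at 315, 248 and 273 CPM in the vehicle hosts, a log2 fold change of -0.06 ± 0.17. High and low hosts occurred in both arms. *Cdk6* was at 114, 146, 222, 244 and 289 CPM under acalabrutinib, the lowest and the highest host of all, and at 238, 213 and 274 CPM under vehicle (log2 fold change -0.29 ± 0.25). *Cdk2* differed by -0.23 ± 0.26 on the log2 scale, *Ccne1* by 0.11 ± 0.39 and *Ccne2* by -0.17 ± 0.33. For the rarer genes the errors were larger, at 1.41 for *Ccnd2*, 1.15 for *Cdkn2c*, 0.83 for *Cdkn1b* and 1.33 for *Cdkn1a*, so that a change of several-fold in them was not detectable with 5 and 3 hosts. Every adjusted p of the 10 genes was 0.999988 in edgeR. At 10 or more counts *Cdk6* was found in 45.7% ± 13.1 of cells per acalabrutinib host and 48.9% ± 8.59 per vehicle host (SD, n = 5 and 3). Each sum pools BTKWT with BTKC481S cells, and a change in the BTKWT cells alone was not tested.

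*Myc*-positive cells held *Cdk6* more often than *Myc*-negative cells and *Ccnd3* less often, with neither called by the edgeR test. *Myc* had at least 1 count in 177 cells (27.8%), from 10.9% of cells in host V7 to 43.9% in host A11, and each host contributed 5 to 50 such cells. Counts were summed over *Myc*-positive and *Myc*-negative cells of each host and compared with the host as a block. *Cdk6* averaged 321 ± 116 CPM in *Myc*-positive and 178 ± 49.0 CPM in *Myc*-negative cells (SD, n = 8 hosts), a ratio of 1.80. It was at 342, 149, 209, 308 and 501 CPM in the *Myc*-positive cells of A7, A8, A10, A11 and A12 and at 255, 381 and 426 CPM in those of V5, V7 and V9, against 79.3, 145, 229, 193, 176, 233, 191 and 181 CPM in the *Myc*-negative cells of the same hosts in the same order. It was higher in 7 of 8 hosts, all but A10, although the ranges of the classes overlapped. At 10 or more counts *Cdk6* was found in 72.9% of *Myc*-positive and 39.1% of *Myc*-negative cells, and this share was higher in 8 of 8 hosts.

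The median log2 fold change over all genes tested was -0.42 in this comparison, and -0.19 over genes detected in at least 20% of cells, and the fit without the host as a block had a median of -0.02. Against that shift the edgeR log2 fold change of *Cdk6* was 0.81 ± 0.25 (SE, unadjusted p = 0.00791, adjusted p = 0.385). edgeR called 6 of 12714 genes (0.0472%) and none of the 9 of the 10 genes that it tested, which left out *Cdkn1a* for low counts. DESeq2 called 1190 genes (9.36%), among them *Cdk6* as higher (log2 fold change 0.85, adjusted p = 0.0299) and *Ccnd3* as lower (-0.37, adjusted p = 0.0402). The 6 genes that edgeR called included *Ly75*, *Nfkbia*, *Net1* and *Batf* as higher and *Gm572* and *Cd180* as lower.

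*Ccnd3* averaged 515 ± 126 CPM in *Myc*-positive and 687 ± 165 CPM in *Myc*-negative cells (SD, n = 8 hosts). Its values in *Myc*-positive cells were 539, 606, 399, 498, 553, 748, 373 and 405 CPM in hosts A7, A8, A10, A11, A12, V5, V7 and V9, and in *Myc*-negative cells of these hosts 883, 829, 471, 511, 582, 892, 690 and 639 CPM. It was lower in 8 of 8 hosts. Its log2 fold change of -0.42 ± 0.12 (edgeR, unadjusted p = 0.00594, adjusted p = 0.356) equaled the median over all genes tested and lay below the median over genes detected in at least 20% of cells. It was found at 10 or more counts in 74.0% of *Myc*-positive and 84.8% of *Myc*-negative cells, while the *Myc*-positive cells were the deeper, with a median of 890495 against 751578 counts.

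*Cdk4* averaged 318 ± 74.5 against 256 ± 44.3 CPM (SD, n = 8 hosts), higher in 6 of 8 hosts, with a log2 fold change of 0.29 ± 0.18 (edgeR, adjusted p = 0.71). It was found in 72.3% of *Myc*-positive and 52.0% of *Myc*-negative cells. Both *Cdk4* and *Cdk6* were found in 58.2% of *Myc*-positive cells and in 24.6% of *Myc*-negative cells. In the 573 cells deep enough to be thinned to 459128 counts (64 were left out), of which 167 were *Myc*-positive and 406 *Myc*-negative, the share of cells with a count was 78.4% against 47.5% for *Cdk6*, 77.2% against 58.6% for *Cdk4* and 76.6% against 89.4% for *Ccnd3*, so that the direction of each share was the same at equal depth. *Ccnd2* stood at 34.5 ± 29.2 CPM in *Myc*-positive and 8.62 ± 9.57 CPM in *Myc*-negative cells, higher in 5 and lower in 2 of 8 hosts and at 0 in both classes of A7 (log2 fold change 3.40 ± 2.36, adjusted p = 0.745). *Ccnd2* was found in 13.0% of *Myc*-positive and 2.17% of *Myc*-negative cells, a share that was higher in 7 of 8 hosts. In V5, V7 and A10 that direction rested on 1 *Myc*-positive cell with *Ccnd2* in each host.

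The E-type cyclins and the inhibitors did not pass the test. *Ccne1* was at 56.4 ± 48.6 CPM in *Myc*-positive and 81.9 ± 31.7 CPM in *Myc*-negative cells (lower in 7 of 8 hosts, adjusted p = 0.749), and *Ccne2* at 46.4 ± 39.9 and 38.5 ± 16.0 CPM (adjusted p = 0.973). *Cdk2* was at 149 ± 46.6 and 192 ± 55.7 CPM (adjusted p = 0.775), *Cdkn1b* at 14.3 ± 17.0 and 10.5 ± 8.66 CPM (adjusted p = 0.949) and *Cdkn2c* at 13.3 ± 15.3 and 16.0 ± 11.8 CPM (adjusted p = 0.831). Shares went the other way for *Ccne1*, found in 23.7% of *Myc*-positive and 18.0% of *Myc*-negative cells (share higher in 5 of 8 hosts). So did those of *Cdk2*, at 44.1% and 39.3% (higher in 6 of 8). After thinning, the shares with a count were 26.3% against 20.9% for *Ccne1* and 50.9% against 49.8% for *Cdk2*. Of a list of 25 MYC targets, 24 were tested, with a median log2 fold change of 0.95 against -0.42 over all genes. Of these, 23 had a positive value, against 29.0% of all genes tested. DESeq2 called 14 as higher, against 1.87% of all genes, and edgeR called none. LZ markers summed to 2924 ± 606 CPM in *Myc*-positive and 2002 ± 373 CPM in *Myc*-negative cells, and DZ markers to 1383 ± 226 and 1690 ± 197 CPM. The part of these zonal markers in the values of the 10 genes was not tested.

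**Figure D2:**
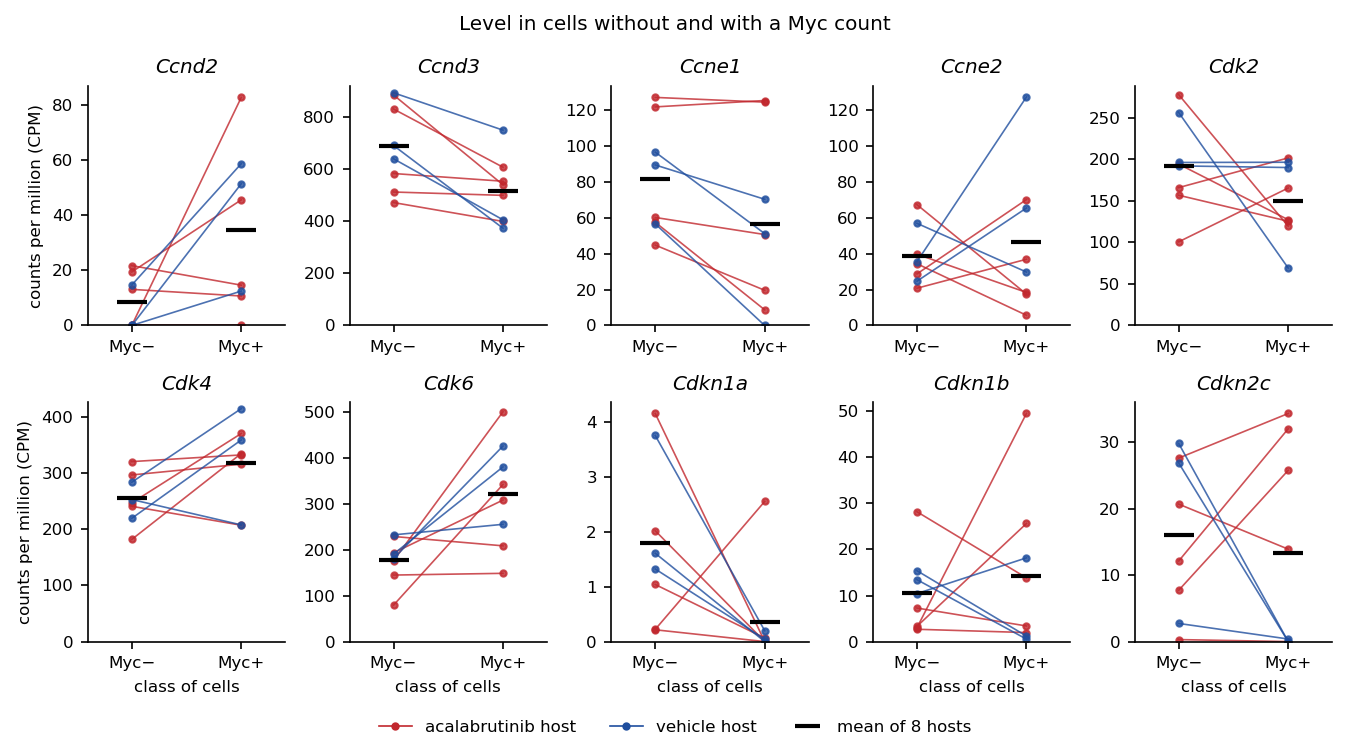
CPM of each gene in cells without and with a *Myc* count, with a line joining the classes of each acalabrutinib (red) or vehicle (blue) host and a black bar for the mean of 8 hosts. *Cdk6* was higher in *Myc*-positive cells in 7 of 8 hosts and *Ccnd3* lower in 8 of 8.

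Cells were next ranked within each host by a score of S-phase genes, the mean log2(CPM + 1) of *Mcm3*, *Mcm5*, *Mcm6*, *Cdc6*, *Gins2* and *Pcna*, none of which is among the 10 genes, and split into low-, middle- and high-score classes of equal size (212, 213 and 212 cells). The 4 genes *Cdk4*, *Cdk2*, *Ccne1* and *Ccne2* rose from the low to the high class, and *Ccnd3* averaged 651 to 655 CPM in all classes. edgeR called 179 of 11224 genes between the high and low classes (1.59%), 128 of them as higher (1.14%), and 4 of the 8 tested of the 10 genes as higher. *Ccnd2* and *Cdkn1a* were left out for low counts. *Ccne1* and *Ccne2* had 0 counts in the low class of 6 and 4 of 8 hosts. They passed the filter on low counts through the high class, so their calls are not read as support. With no filter, only *Cdk4* and *Cdk2* of the 10 genes were called. Of 29 other E2F targets tested in the same fit, 29 had a positive log2 fold change and 16 were called as higher. The E-type cyclins are E2F targets too, so their rise is not independent of a ranking by S-phase genes. The part of the ranking in the 4 calls was not tested.

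*Cdk4* rose from 135 ± 40.5 CPM in the low class through 253 ± 52.0 to 409 ± 79.1 CPM in the high class (SD, n = 8 hosts), a ratio of 3.03. In the low class of A7, A8, A10, A11, A12, V5, V7 and V9 it was at 54.6, 135, 99.8, 178, 159, 168, 134 and 152 CPM, and in the high class at 430, 263, 525, 410, 421, 474, 343 and 409 CPM. The classes did not overlap, and the log2 fold change was 1.62 ± 0.23 (edgeR, adjusted p = 0.00699). *Cdk2* rose from 74.7 ± 47.7 to 267 ± 47.3 CPM, a ratio of 3.58. Its values in the low class were 164, 20.9, 62.1, 69.6, 127, 55.0, 34.2 and 65.0 CPM in the same hosts, and in the high class 366, 251, 279, 212, 261, 243, 293 and 233 CPM. These classes did not overlap either (log2 fold change 2.05 ± 0.31, adjusted p = 0.0104). Both genes were called with each host left out in turn, and *Cdk2* missed the threshold when cells were split into upper and lower score classes of equal size (adjusted p = 0.0774).

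The E-type cyclins were found mostly in cells with a high score, which held 72.8% of the cells with *Ccne1* and 76.2% of those with *Ccne2*. *Ccne1* had 0 counts in the low class of 6 of 8 hosts, with 51.3 CPM in A11 and 63.4 CPM in A12, and stood at 116 to 205 CPM in the high class of all 8 (mean 157 ± 34.1 against 14.3 ± 26.7 CPM, a ratio of 10.96, adjusted p = 0.0479). The ratio was 16.9 without A11 and 20.9 without A12. *Ccne2* had 0 counts in the low class of 4 of 8 hosts and at most 10.7 CPM in the others, and stood at 46.7 to 118 CPM in the high class (mean 79.8 ± 24.3 against 2.16 ± 4.12 CPM, a ratio of 37.0, adjusted p = 0.0337). The ratio was 90.2 without A12. Both were higher in the high class in 8 of 8 hosts with no overlap. The share of all genes tested without overlap is not given here. Non-overlap is therefore not read as particular to *Ccne1*, *Ccne2*, *Cdk4* or *Cdk2*. The fitted fold changes of *Ccne1* and *Ccne2* depend on the prior count, because hosts stood at 0 in the low class, and are not given as sizes. At 10 or more counts *Ccne1* was found in 2.36%, 13.6% and 42.9% of low-, middle- and high-score cells and *Ccne2* in 0.943%, 12.7% and 43.9%. Either E-type cyclin was found in 3.30%, 22.1% and 64.6%. The call of *Ccne1* held without A11 or A12 and was lost without any 1 of the other 6 hosts (adjusted p up to 0.13). That of *Ccne2* held without A12 or V9 and was lost without any 1 of the other 6 (adjusted p up to 0.0929). Neither was called with no filter on low counts, with no host block, between upper and lower score classes or with a larger pseudocount in the score.

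*Cdk6* differed less between the score classes than *Cdk4* and *Cdk2* did in CPM, although the difference between the genes was not tested. It averaged 164 ± 70.2 CPM in the low and 256 ± 68.7 CPM in the high class, higher in 7 of 8 hosts and at 124 CPM in both classes of A7 (log2 fold change 0.73 ± 0.25, edgeR, adjusted p = 0.218). DESeq2, which called 1610 genes (14.3%), called it as higher (0.71, adjusted p = 0.0262). *Ccnd3* averaged 655 ± 229, 651 ± 193 and 651 ± 142 CPM in the 3 classes, with a log2 fold change of 0.02 ± 0.12 (edgeR, adjusted p = 0.977). At 10 or more counts it was found in 75.9%, 80.3% and 89.2% of low-, middle- and high-score cells, a share that was higher in the high than in the low class in 7 of 8 hosts. *Cdkn2c* was at 14.1 ± 14.4 and 14.6 ± 12.2 CPM (adjusted p = 0.975) and *Cdkn1b* at 10.8 ± 12.8 and 10.1 ± 13.3 CPM (adjusted p = 0.878) in the low and high classes. *Ccnd2* was found in 3.30%, 7.98% and 4.25% of low-, middle- and high-score cells. A cell held a median of 2, 3 and 4 of the 10 genes in the low, middle and high class. Depth rose with the score, with median counts of 693088, 814812 and 879952. As means over hosts, the long genes of other tissues fell from 1268 through 912 to 736 CPM. On the same scale, summed LZ markers fell from 2546 to 1880 CPM between the low and high classes, and B cell markers from 4627 to 3593 CPM. The DZ sum fell from 1832 to 1448 CPM, with *Foxp1* alone falling from 1060 to 513 CPM. Of the 6 DZ markers, 3 had a positive log2 fold change (median 0.00022). The part of these markers in the values of the 10 genes was not tested. With cells thinned to equal depth, the same 4 genes were called.

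**Figure D3:**
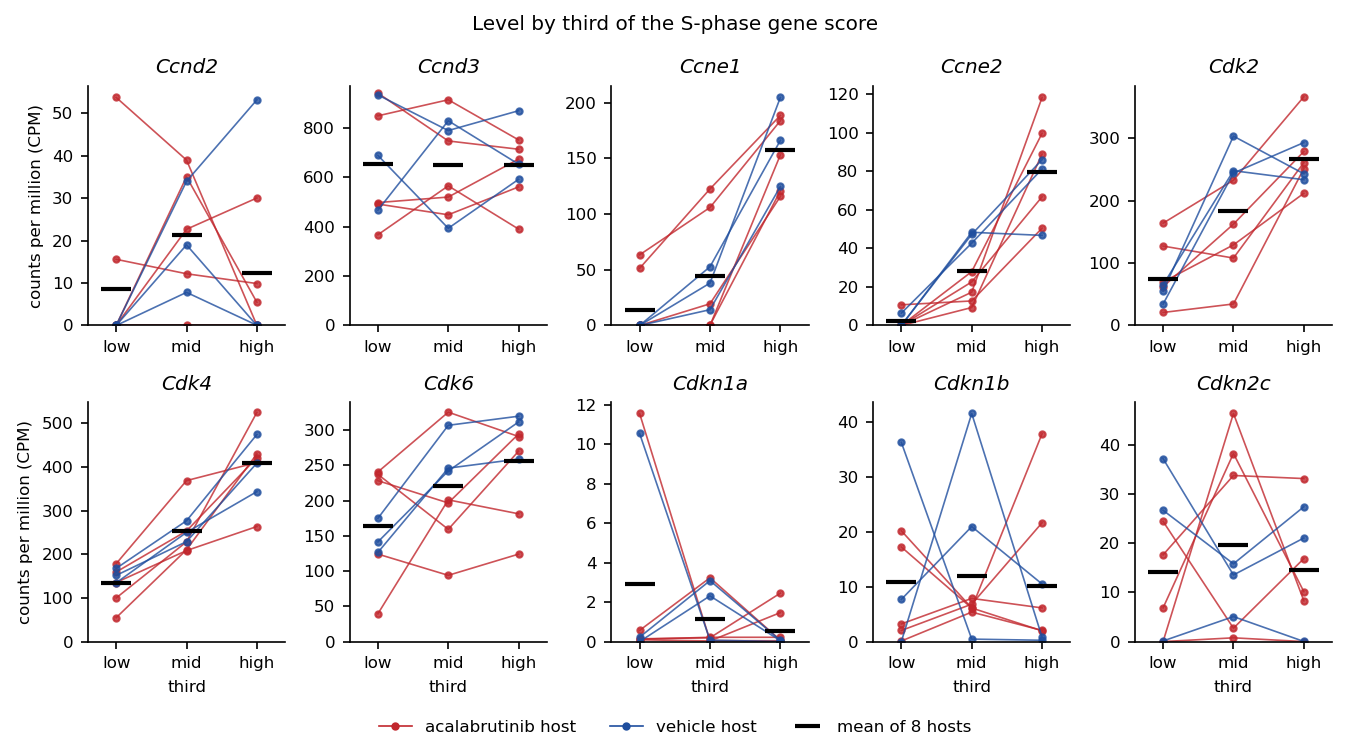
CPM of each gene in the low-, middle- and high-score classes, with a line for each acalabrutinib (red) or vehicle (blue) host and a black bar for the mean of 8 hosts. *Cdk4*, *Cdk2*, *Ccne1* and *Ccne2* rose in 8 of 8 hosts from the low to the high class, and *Ccnd3* averaged 655, 651 and 651 CPM.

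Other genes of the pathway were read from fixed lists in the same fit. Of 30 other regulators of the G1/S transition, 24 were tested, 2 rose and none fell between the low and high classes (of all genes, 1.14% rose and 0.454% fell), with a median log2 fold change of 0.64 against 0.05 over all genes. The 2 were *Tfdp1*, a partner of E2F proteins (109 ± 53.8 to 361 ± 80.7 CPM), and *Rbl1*, a relative of the retinoblastoma protein (95.8 ± 26.2 to 264 ± 70.0 CPM). Of 30 other E2F targets, 29 were tested and 16 rose, with a median of 2.96. The 3 with the smallest adjusted p were *Mcm7*, a subunit of the replicative helicase (105 ± 67.4 to 570 ± 98.7 CPM), *Dnmt1*, the maintenance DNA methyltransferase (229 ± 77.6 to 774 ± 132 CPM), and *Mcm2*, another helicase subunit (103 ± 54.3 to 711 ± 60.1 CPM). The classes had been ranked by S-phase genes that include the helicase subunits *Mcm3*, *Mcm5* and *Mcm6*. A rise of such replication genes was therefore largely built into the ranking. Of 20 G2/M cyclins and kinases 1 rose, *Top2a* (DNA topoisomerase, 377 ± 194 to 1062 ± 117 CPM, adjusted p = 0.0409), a call that held without A8 and was lost without any 1 of the other 7 hosts (adjusted p up to 0.0979). Of 12 tested quiescence genes 1 fell, *Foxp1*, which is also a DZ marker (1060 ± 346 to 513 ± 122 CPM). The 12 had a median log2 fold change of -0.77, and 2 of them were positive. None of 14 tested p53 targets and none of 24 tested MYC targets was called by edgeR. Their median log2 fold changes were 0.16 and 0.57, with 10 of 14 and 21 of 24 positive, against 52.7% of all genes tested. In the treatment comparison and in the *Myc* comparison edgeR called no gene of these 6 lists.

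The *Myc* and score classes were then crossed. Among cells of the low score class, *Cdk6* was found in 57.1% of the 42 *Myc*-positive cells (exact 95% interval 41.0 to 72.3%) and in 27.6% of the 170 *Myc*-negative cells (21.1 to 35.0%). *Cdk4* was found in 40.5% (25.6 to 56.7%) and 28.2% (21.6 to 35.6%) of these cells. *Ccne1* was found in 1 of the 42 *Myc*-positive cells of low score and *Ccne2* in 0 of 42 (exact 95% interval 0 to 8.41%). *Ccnd3* was found in 59.5% of them (43.3 to 74.4%) and in 80.0% of *Myc*-negative cells of low score (73.2 to 85.7%). In the high score class *Ccnd3* was found in 91.2% of *Myc*-positive and 88.2% of *Myc*-negative cells, *Cdk6* in 89.7% and 52.1%, and *Cdk4* in 89.7% and 77.1%. There, *Ccne1* was found in 45.6% and 41.7% and *Ccne2* in 47.1% and 42.4%. *Ccnd2* was most frequent in *Myc*-positive cells of the middle class, at 22.4% (15 of 67 cells, 13.1 to 34.2%), against 1.37% of *Myc*-negative cells (2 of 146). These shares pool cells over hosts, and hosts A11, V9 and A12 gave 50, 47 and 26 of the 177 *Myc*-positive cells. Differences between the *Myc* classes within a score class are therefore mixed with differences between hosts, which the intervals leave out. Cells are not replicates, so the shares are given with no test.

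**Figure D4:**
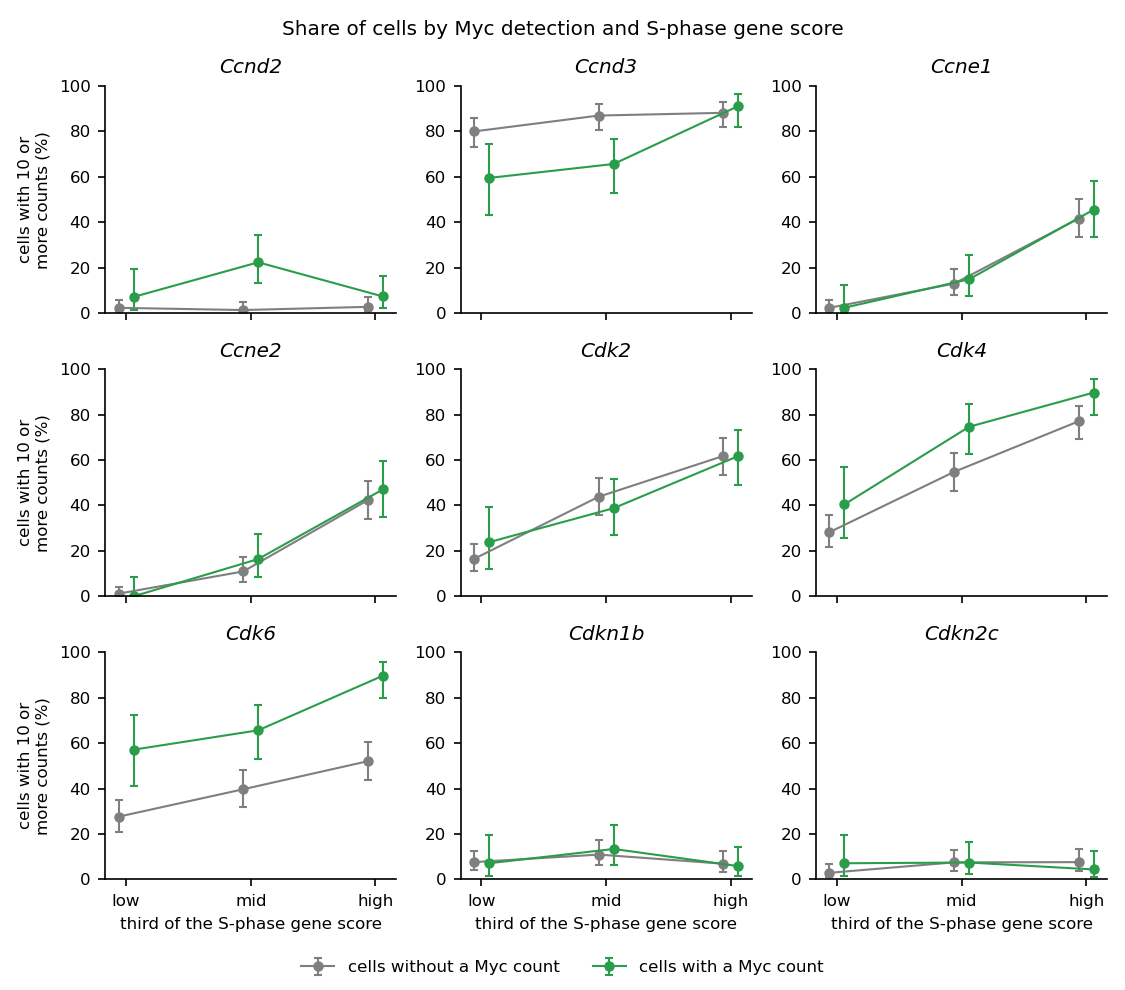
Percent of cells with at least 10 counts of each gene but *Cdkn1a* in the low-, middle- and high-score classes, for cells with (green) and without (gray) a *Myc* count. Cells are pooled over hosts, and the exact 95% intervals treat them as independent draws, leaving out the spread between hosts. *Cdk6* lay higher in *Myc*-positive cells in all 3 classes, and *Ccne1* and *Ccne2* rose with the score in both.

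The class effects were compared between acalabrutinib and vehicle hosts in a test of the interaction. edgeR called 0 of 12714 genes for the *Myc* classes (0%; 255 at an unadjusted p under 0.05) and 0 of 11224 for the score classes (0%; 247 at an unadjusted p under 0.05), and each of the 10 genes that was tested (9 and 8 of them) had an adjusted p of 1. DESeq2 called 226 genes (1.78%) and 315 genes (2.81%). It called 1 of the 10, *Cdkn2c*, in the *Myc* interaction (adjusted p = 0.00305). *Cdkn2c* was at 0, 34.3, 25.8, 13.9 and 32.0 CPM in *Myc*-positive cells of A7, A8, A10, A11 and A12 and at 0, 0 and 0.387 CPM in those of V5, V7 and V9. In *Myc*-negative cells it was at 0.301, 27.6, 7.72, 20.7 and 12.1 CPM under acalabrutinib and 29.8, 26.9 and 2.73 CPM under vehicle. The vehicle values of V5 and V7 rested on 14 and 6 *Myc*-positive cells. For *Cdk6* the interaction was 0.02 ± 0.53 on the log2 scale in the *Myc* comparison, and for *Cdk4* it was 0.31 ± 0.47 in the score comparison.

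Pooled over hosts, cells with *Ccnd2* mostly held *Myc* and less *Ccnd3* than the other cells. There were 33 cells with 10 or more *Ccnd2* counts, in 7 hosts, at a median of 247 CPM. *Myc* was detected in 23 of the 33 (69.7%) and in 25.5% of the other cells. By host it was 3 of 3 in A8, 1 of 3 in A10, 4 of 8 in A11 and 6 of 9 in A12. It was 1 of 1 in V5, 1 of 1 in V7 and 7 of 8 in V9. Of all cells in A11, A12 and V9, 43.9%, 32.1% and 36.2% held *Myc*. *Ccnd3* had a median of 214 CPM in the *Ccnd2* cells and 581 CPM in the other cells, and *Ccnd2* exceeded *Ccnd3* in 20 of the 33. They fell in the low, middle and high score classes in 7, 17 and 9 cells. *Ccnd2* was found with *Ccnd3* in 22 cells where 26.4 were expected from the shares within each host, with *Cdk4* in 28 where 19.9 were expected, with *Cdkn1b* in 8 where 3.29 were expected, and with each E-type cyclin in 3, where 7.43 (*Ccne1*) and 6.42 (*Ccne2*) were expected.

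Of the 36 pairs without *Cdkn1a*, 26 were found together in more cells than expected at 10 or more counts, 27 at 1 or more counts and 26 at 1 or more counts after thinning. *Ccne1* and *Ccne2* were found together in 56 cells where 24.7 were expected, a ratio of 2.27. At 1 or more counts they were found together in 73 cells where 36.4 were expected, and after thinning in 62 where 32.0 were expected. *Ccne2* and *Cdk2* shared 86 cells (50.8 expected), *Ccne1* and *Cdk2* 79 (51.2 expected) and *Cdk4* and *Cdk6* 216 (183 expected). In all, 83.5% of cells held a D-type cyclin, 72.2% *Cdk4* or *Cdk6*, 30.0% an E-type cyclin and 14.6% *Cdkn1a*, *Cdkn1b* or *Cdkn2c*. The inhibitor *Cdkn2d*, which is not among the 10 genes, was not counted in that share. A D-type cyclin was found together with *Cdk4* or *Cdk6* in 61.9% of cells. An E-type cyclin was found with *Cdk2* in 19.2% of cells. None of the 10 genes was found in 22 cells (3.45%), which had a median of 610728 counts. All genes of a cell share its library depth, so these counts are descriptions. The expected counts hold the host fixed and not the score class, with which *Ccne1*, *Ccne2*, *Cdk2* and *Cdk4* rose. The part of the score in the joint counts was not tested.

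**Figure D5:**
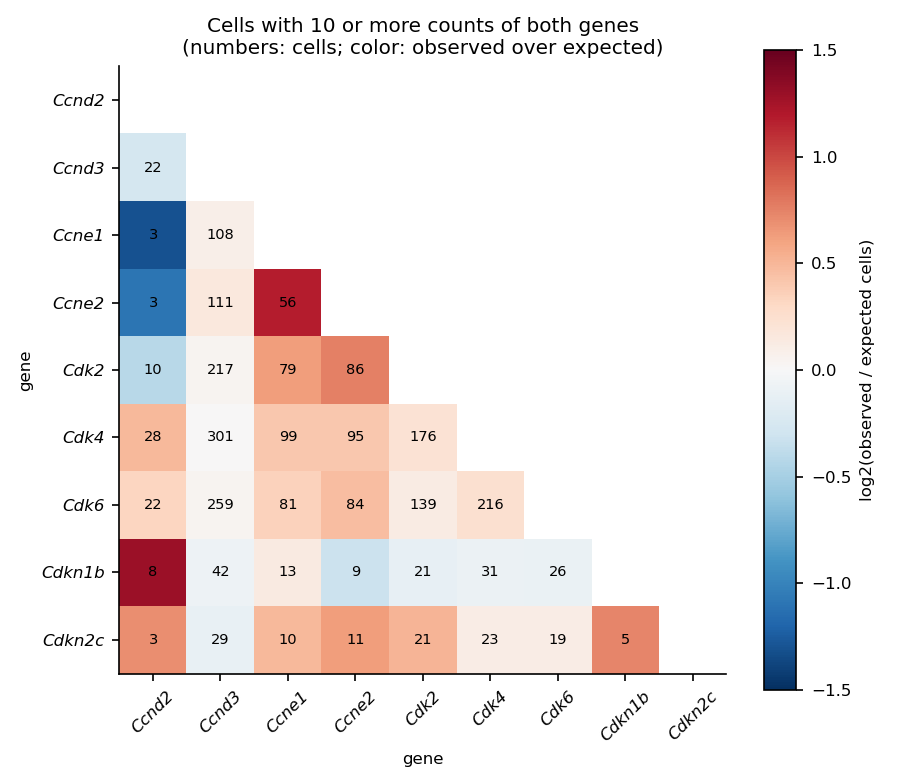
Cells with at least 10 counts of both genes of a pair (numbers) and the log2 ratio to the count expected from the shares within each host (color), without *Cdkn1a*. *Ccne1* with *Ccne2* stood at 56 cells against 24.7 expected, and *Ccnd2* with *Ccne1* at 3 against 7.43.

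The genes most like each member were sought among 6990 genes by Pearson's r of log2(CPM + 1) over the 637 cells, centered within hosts, and named from r = 0.3 upward. *Ccne1*, *Ccne2*, *Cdk2* and *Cdk4* each had *Rrm2*, a subunit of ribonucleotide reductase, among their top 3 (r = 0.42, 0.51, 0.38 and 0.35). *Gm15428* came second for *Ccne1* (0.40) and for *Ccne2* (0.43). *Ccne2* was also like *Brip1* (0.40), *Cdk2* like *Lig1*, a DNA ligase (0.42), and *Dut* (0.37), and *Ccne1* like *Neil3* (0.36). *Cdk4* was most like *Mcm6* (0.38), which is a score gene, and then *Tuba1b* (0.35). *Cdk6* was most like *Ptges3* (0.32) and its pseudogene *Ptges3-ps* (0.30), which may share reads. *Ccnd2* was most like *Ly75* (0.32), one of the genes that edgeR called between the *Myc* classes. *Ccnd3* reached 0.29 with *Ccnd3-ps*, a pseudogene that may take its reads, and the inhibitors did not reach 0.3 with any gene. With the S-phase score itself, r was 0.47 for *Ccne2*, 0.46 for *Cdk4*, 0.43 for *Ccne1*, 0.40 for *Cdk2*, 0.26 for *Cdk6*, 0.13 for *Ccnd3* and 0.02 for *Ccnd2*, and with the logarithm of total counts it was at most 0.23.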

How the data were processed

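The deposited matrix holds counts of reads per gene and cell, which the authors made with STARsolo 2.7.10a from SMART-seq2 libraries of single sorted LZ B cells, counting reads over exons and introns of GRCm39 (the processing notes also list GRCm38) and collapsing identical positions, with no normalization. SMART-seq2 carries no molecular identifiers. The study's filters on mitochondrial share and gene number removed no cell here. Host names were read from the cell names, and 48 listed runs without matching cells in the matrix went unused. The genotype of a cell is not in its name.

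The 10 genes, the pathway lists and the markers were chosen with earlier results of these data known. Counts were summed over the cells of each host, or of each host and class, with at least 5 cells per class, and divided by their total to give CPM. Hosts correlated with one another at r = 0.83 to 0.89 over 17136 genes, so no host was a copy of another. Tests used edgeR 4.0.16 (quasi-likelihood, TMM, filterByExpr, Benjamini-Hochberg over all genes tested, adjusted p under 0.05) in R 4.3.3, after a check on simulated counts. Treatment was the only term between hosts, and the host was a block within them, because both classes came from the same mouse. *Myc* and the 6 score genes were left out of the adjustment where they defined the classes. The SE is the fold change divided by the square root of F. The alternatives were DESeq2 1.42.0, no filter, no block, thinning to 459128 counts (573 cells kept, 64 left out), *Myc* at 10 or more counts, upper against lower score class, a pseudocount of 10 CPM in the score, each host left out, and, added after seeing the data, the plate as the block and the ratios of *Ccne1* and *Ccne2* without each host. Shares carry exact Clopper-Pearson intervals (95%). Expected pairs are the sums over hosts of the product of both shares and the cell number. Exon lengths came from GENCODE M21, and so scale levels only roughly. Named genes were all 10 members, up to 3 called genes of each list by smallest adjusted p, and up to 3 genes most like each member at r of at least 0.3 among genes detected in 20% of cells. *Ccnd1*, *Cdkn1c*, *Cdkn2a*, *Cdkn2b*, *Cdkn2d* and the genes called between the *Myc* classes were named after their values were seen.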

Additional observations from a re-analysis of the deposited data

Results flagged for a closer look

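Of 70 groups, each of 8 hosts or of the 5 acalabrutinib hosts, 3 (4.29%) had a highest host that stood apart by Dixon's test. Chance gives about 1 in 20. *Ccnd2* reached 53.8 CPM in the low-score cells of host A12, where the next host was at 15.6 CPM. *Cdk4* reached 369 CPM in the middle-score cells of host A11, where the next was at 277 CPM. *Cdkn1a* reached 2.55 CPM in the *Myc*-positive cells of host A12, where the next was at 0.198 CPM, and these values rest on few counts.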

How the results depend on the processing

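The numbers of hosts and of cells limit what can be read here. With 5 and 3 hosts, changes in *Ccnd2*, *Cdkn1a*, *Cdkn1b* and *Cdkn2c* carried errors of about a log2 unit, and *Myc*-positive sums rested on as few as 5 cells. The genotype, the experiment of each host and the strand of the counting could not be entered in a fit, and a share of cells moves with depth and with stray reads.

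Between treatments DESeq2 called 105 genes, and edgeR called 0 genes without any 1 host. Between the *Myc* classes the 6 calls became 1190 with DESeq2, 0 with no filter, 21 with no replicate block, 1 with thinning and 1 with *Myc* at 10 or more counts (both of which also dropped A7, for under 5 *Myc*-positive cells), 63 with the plate as the block, and 0 without any 1 host. None of the 10 genes was called in these except *Cdk6* and *Ccnd3* by DESeq2. Between the score classes the 179 calls became 1610 with DESeq2, 85 with no filter, 117 between upper and lower classes of equal size, and 63 to 120 without 1 host. With no replicate block 189 genes were called, *Cdk4* and *Cdk2* remained called, and *Ccne1* (adjusted p = 0.341) and *Ccne2* (adjusted p = 0.0674) did not. The last 2 were also lost with no filter, with upper and lower classes (adjusted p = 0.227 and 0.205) and with the larger pseudocount. *Top2a* was lost with no filter, with the plate as the block and without any 1 host but A8. For the interactions DESeq2 called 226 and 315 genes. The treatment arms share no replicate names, so no pairing was possible between them.

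Signs turned only in comparisons where no setting called the gene. For the score, *Ccnd3* went to -0.0036 with DESeq2, -0.026 with no replicate block and -0.088 with thinning (-0.054 to 0.067 without 1 host), *Cdkn1b* to -0.15 with no replicate block, and *Cdkn2c* to -0.48 with thinning, -0.41 with upper and lower classes and -0.35 with the larger pseudocount (-0.27 to 0.61 without 1 host). For *Myc*, *Ccne2* went to 0.28 with no replicate block and 0.12 with the plate (-0.43 to 0.24 without 1 host), and *Cdkn1b* to 0.40 with no replicate block (-0.97 to 0.15 without 1 host). Between treatments without 1 host, *Ccnd2* ranged from -0.34 to 1.56, *Ccnd3* from -0.34 to 0.10, *Ccne1* from -0.11 to 0.31, *Cdk4* from -0.15 to 0.082, *Cdkn1a* from -1.27 to 0.35 and *Cdkn2c* from -0.66 to 0.27. In the *Myc* interaction without 1 host, *Ccne1* ranged from -0.19 to 3.70, *Cdk2* from -0.23 to 0.69, *Cdk4* from -0.38 to 0.10 and *Cdk6* from -0.29 to 0.26, and in the score interaction *Ccnd3* from -0.23 to 0.17 and *Cdkn1b* from -1.11 to 4.80. Where a class of a host stood at 0, these fitted values depend on the prior count and are read for their sign only. The causes were not tested.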
